A study of Mus musculus with 6 samples.

Results

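Levels of 10 genes of the Hippo pathway and of neuregulin signalling were followed in left ventricular cardiomyocytes (CMs) of mice around birth. The genes were chosen by symbol, as 10 of the 27998 genes in the count tables: the transcriptional effectors Yap1, Wwtr1 (the gene of TAZ) and Tead1, the kinases Lats1 and Lats2, the target genes Ctgf, Cyr61 and Amotl2, and the receptors Erbb2 and Erbb4. C57BL/6J mice with no transgene or treatment named were taken at E16.5, P1 and P5. Ventricular cells were dissociated, fixed in methanol, stained for the CM marker MYH1 and sorted by Hoechst staining into diploid (2n) and tetraploid (4n) fractions, which gave 6 groups, named by age and ploidy as in E16.5-2n. Each group was 1 library of droplet-based scRNA-seq in which cells of 3 sorts, each from 1 litter, had been pooled. The paper names 3 sorts and 3 litters per age, so the 2n and 4n libraries of an age share their litters. The litters of the 3 ages came from different breeding pairs. Cells of a library share that library, so no test between groups was possible and no p-value is given. A 4n DNA content is held by cycling CMs in G2 or M phase as well as by CMs that stay polyploid, and the sort did not separate them.

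The Hippo pathway is a kinase cascade that restrains organ growth. When it is active, the kinases LATS1 and LATS2 phosphorylate YAP and TAZ, which are then kept in the cytoplasm or degraded, and when it is inactive, YAP and TAZ enter the nucleus and switch on target genes together with TEAD factors. Neuregulin is released by endothelial and endocardial cells of the heart and binds ERBB4 on CMs, which then pairs with ERBB2, a receptor with no ligand of its own. Both routes are known as regulators of CM proliferation, and both are controlled to a large extent on proteins, which the mRNA counts below do not measure.

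TEAD factors bind a short element, MCAT, with the core GGAATG, or CATTCC on the opposite strand. RefSeq windows of GRCm38.p6, which hold 250 bases before and 50 bases after a transcript start, were found for 8 of the 10 genes, and in 6 of these at least 1 window held the core on either strand. Counted by window, 7 of the 10 windows of these genes held it, beside 14.7% of all 32851 windows of the same length. The windows of Wwtr1 overlap and hold the same match. The 5 matches that lie before the start are shown first, since these genes include the effectors themselves and the targets whose levels are described below. Sequences are written 5′ to 3′ on the strand of the gene, with the core in capitals. The printed stretches, which are parts of these windows, lie at chr3:145650036-145650135 (minus strand) for Cyr61, chr9:102717727-102717756 (plus strand) for Amotl2, chr9:8004685-8004784 (minus strand) for Yap1, chr3:57575994-57576093 (minus strand) for Wwtr1 and chr11:98412349-98412448 (plus strand) for Erbb2.
Cyr61: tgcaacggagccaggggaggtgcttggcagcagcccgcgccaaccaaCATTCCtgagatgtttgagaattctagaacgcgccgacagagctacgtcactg
Amotl2: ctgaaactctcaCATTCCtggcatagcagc
Yap1: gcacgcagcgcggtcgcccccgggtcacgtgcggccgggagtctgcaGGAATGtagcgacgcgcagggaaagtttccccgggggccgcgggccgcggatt
Wwtr1: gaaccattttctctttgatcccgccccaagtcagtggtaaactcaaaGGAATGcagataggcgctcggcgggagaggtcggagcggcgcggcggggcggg
Erbb2: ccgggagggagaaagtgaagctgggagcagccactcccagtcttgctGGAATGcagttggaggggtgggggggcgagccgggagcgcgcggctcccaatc
The core began 103 bases before the start for Cyr61, 65 for Amotl2, 141 for Yap1 and 88 for Erbb2. For Wwtr1 it began 136 or 170 bases before, depending on which of its transcript starts is taken. The stretch of Amotl2 was kept short because a longer one around the core overlapped an annotated exon. It lies within the annotated span of Amotl2, which begins further upstream. In Lats2 the core lay at 1 of its 2 transcript starts and just after it, at chr14:57746102-57746131 (minus strand).
Lats2: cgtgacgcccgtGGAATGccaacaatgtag
No match was found in the windows of Lats1 and Erbb4, which says only that these letters are not in those windows. A match is a description of the sequence and not a bound site. Ctgf and Tead1 had no entry.

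In the GENCODE annotation of GRCm38, Yap1 lies at chr9:7931999-8004596, Wwtr1 at chr3:57455649-57575910, Lats2 at chr14:57689662-57758388, Cyr61 (now named Ccn1) at chr3:145646976-145649981 and Erbb4 at chr1:68032186-69108059, all on the minus strand. Tead1 lies at chr7:112679318-112906807, Lats1 at chr10:7681214-7716460, Ctgf (now named Ccn2) at chr10:24595442-24598683, Amotl2 at chr9:102716672-102733418 and Erbb2 at chr11:98412470-98437716, all on the plus strand. The authors counted UMIs by strand over exons and introns. Erbb4 spans 8 other annotated genes on its own strand and Tead1 spans 1, none of which shares exonic bases with it. Whether reads from those genes were counted in the introns of Erbb4 or Tead1 was not tested. Lats2 shares exonic bases with Gm49361, a gene that is no row of the count tables.

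The tables held 31156 cell barcodes, of which 30733 (98.6%) had at least 1 UMI of each of Tnni3, Tnnt2, Tnnc1 and Actc1 and are called CMs here. The UMIs of these CMs summed to between 13070343 (E16.5-4n) and 19665830 (P1-4n) per library, with medians of 1831 (P1-2n) to 4658 (P5-4n) UMIs per CM. The 8 CM markers, among them Myh6, Ttn, Ryr2 and Pln, had UMIs in every library and together held 29818 (E16.5-4n) to 41420 (P1-2n) of every 1000000 UMIs (counts per 1000000, CPM). Any pair of libraries shared 17 to 62 barcodes. At least 3 UMIs of the marker list of fibroblasts, endothelial cells, mural cells, immune cells or the epicardium were found in 2.04%, 2.44% and 5.98% of the 2n CMs at E16.5, P1 and P5, and in 20.5%, 32.3% and 12.7% of the 4n CMs. Of these lists every marker had UMIs in every library except Ptprc and Upk1b, which were at 0 in E16.5-2n. At least 3 UMIs of 13 mitosis markers were found in 15.4%, 1.83% and 10.2% of the 2n CMs and in 50%, 10.1% and 38.2% of the 4n CMs. UMIs of 5 erythroid genes, whose RNA a CM does not make, summed to between 1648 (P5-4n) and 10327 (E16.5-4n) CPM in CMs. Whether this RNA was free in the droplets or came from red blood cells in the same barcode was not tested. The shares of CMs with other-cell or mitosis markers and the erythroid RNA all differ between the groups compared below. These shares were not thinned to an equal depth, so they also depend on the depth of a library. Levels are given as CPM summed over the CMs of a library, in which fewer cells of a type and less RNA per cell cannot be told apart.

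With all CMs counted, none of the 10 genes differed by 1.5-fold between 4n and 2n CMs at any age. Without CMs that hold mitosis markers, Wwtr1 (log2 ratio 0.74) and Lats1 (0.94) were past 1.5-fold higher in 4n CMs at E16.5. At E16.5, 7 of 10 were higher in 4n CMs, and past 1.5-fold the count was 0 of 10 in either direction, against 11.2% of the 10768 genes compared that were higher and 1.8% that were lower. At P1, 9 of 10 were higher in 4n CMs (5 of 10 without CMs that hold markers of other cell types), again with 0 of 10 past 1.5-fold in either direction, against 12.6% of 10864 genes higher and 0.506% lower. At P5, 6 of 10 were higher, with 0 of 10 past 1.5-fold, against 4.62% of 10563 genes higher and 2.69% lower. The median log2 ratio of the 10 genes was 0.28 at P1, beside 0.05 for all genes, and without CMs that hold markers of other cell types it was 0.06, beside -0.004. At E16.5 and P5 it was 0.09 and 0.02 beside 0.03 and 0.02. The genes counted here had at least 50 UMIs in the 2 libraries together, and the medians rest on genes with at least 100.

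**Figure D1:**
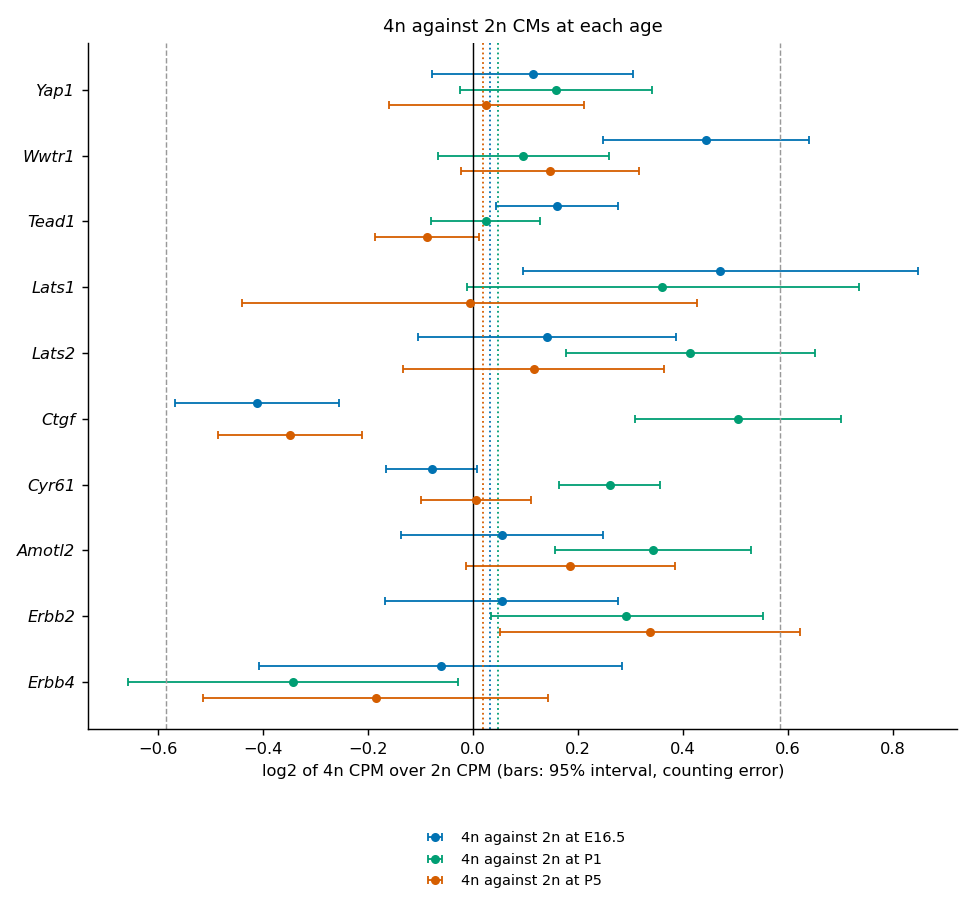
Log2 ratio of the CPM in 4n over 2n CMs (x axis) of each of the 10 genes (y axis) at E16.5 (blue), P1 (green) and P5 (orange). Bars are 95% intervals of the binomial split of UMIs, dotted lines the median of all genes at each age, and dashed lines a fold of 1.5. All 30 points lie inside the dashed lines, and Ctgf lies left of 0 at E16.5 and P5 and right of it at P1.

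Between ages, in CPM, 10 of the 11 ratios past 1.5-fold were lower at the later age and 1 was higher, while relative to the median gene 2 were lower and 5 higher. All genes were also more often lower than higher in CPM. In 2n CMs from E16.5 to P1, Ctgf, Cyr61 and Erbb2 were lower (3 of 10), against 33% of 10522 genes, and 0 of 10 were higher, against 5.35%. From P1 to P5 in 2n CMs, Ctgf alone was higher (1 of 10, against 9.16% of 10441 genes) and 0 of 10 were lower, against 10.1%. Over the whole span in 2n CMs, Cyr61 and Erbb2 were lower (2 of 10, against 40.9% of 10656 genes) and 0 of 10 were higher, against 7.48%. In 4n CMs from E16.5 to P1, Erbb2 was lower (1 of 10, against 31% of 11119 genes) and 0 of 10 were higher, against 7.63%. From P1 to P5 in 4n CMs, Lats1 was lower (1 of 10, against 19% of 10985 genes) and 0 of 10 were higher, against 5.59%. Over the whole span in 4n CMs, Lats1, Cyr61 and Erbb2 were lower (3 of 10, against 45.8% of 10789 genes) and 0 of 10 were higher, against 6.19%. The set is small and the comparisons share libraries, so these counts were not read as a difference between the 10 genes and all genes.

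The median of all genes moved with age in CPM. It stood at log2 -0.34 in 2n and -0.30 in 4n CMs from E16.5 to P1, at -0.09 and -0.16 from P1 to P5, and at -0.45 and -0.51 over the whole span. Relative to it, 3 of the 11 ratios past 1.5-fold still passed that size: Ctgf from E16.5 to P1 and from P1 to P5, and Erbb2 from E16.5 to P5, all in 2n CMs. A further 4 passed it only on that scale, all of them higher: in 2n CMs Wwtr1 at P1 (0.65) and P5 (0.62) and Tead1 at P5 (0.63), each over E16.5, and Ctgf from P1 to P5 (0.69) in 4n CMs. Of the 10 genes, 6 in 2n and 7 in 4n CMs lay above the median gene from E16.5 to P5.

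**Figure D2:**
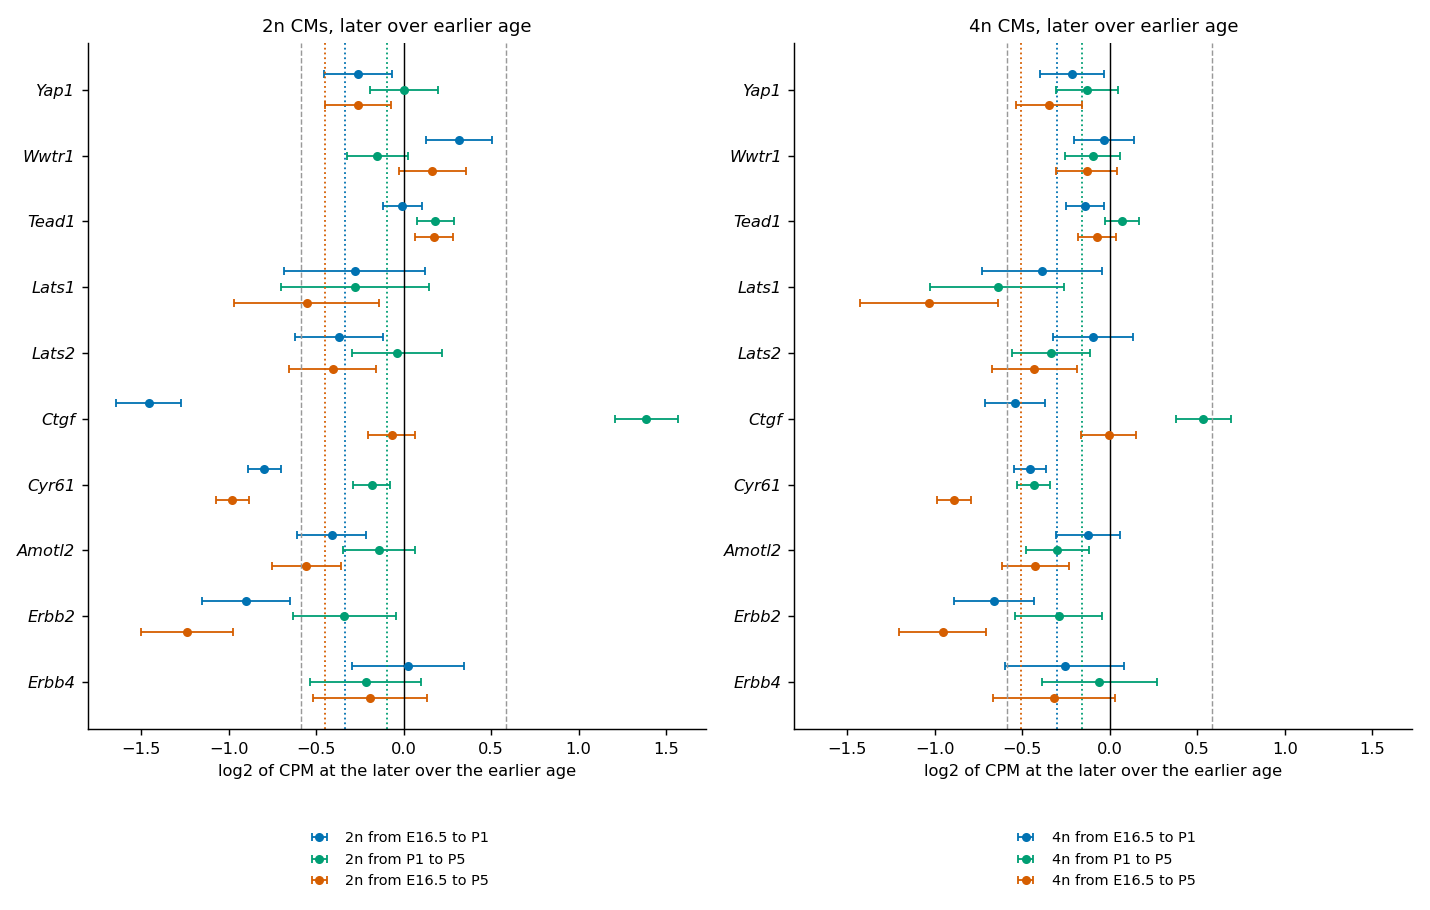
Log2 ratio of the CPM at the later over the earlier age (x axis) of each gene (y axis) in 2n CMs (left) and 4n CMs (right), for E16.5 to P1 (blue), P1 to P5 (green) and E16.5 to P5 (orange). Bars are 95% intervals for counting error, dotted lines the median of all genes and dashed lines a fold of 1.5; Ctgf in 2n CMs lies at -1.46 and then at 1.39, and the orange points of Erbb2 and Cyr61 lie left of the dashed line in both panels.

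The effectors differed by less than 1.5-fold in CPM between any pair of libraries compared. Yap1, a co-activator that cannot bind DNA itself, stood at 31.2, 26.0 and 26.1 CPM in 2n CMs at E16.5, P1 and P5 and at 33.7, 29.0 and 26.5 CPM in 4n CMs. Its lowest library, P1-2n (95% Poisson interval 23.6 to 28.6), and its highest, E16.5-4n (30.7 to 37.0), do not overlap, while all 5 pairs of neighbours in the order of levels do. From E16.5 to P5 the log2 ratio of Yap1 was -0.26 (-0.45 to -0.07) in 2n and -0.35 (-0.54 to -0.16) in 4n CMs, which relative to the median gene was 0.19 and 0.16 higher. Without mitosis-marked CMs the ratio in 4n CMs was -0.83 (39.2 CPM at E16.5 and 22.1 at P5), past 1.5-fold. Yap1 then lay below the median gene, at -0.55, so that its place relative to the median gene turned in 4n CMs. In 2n CMs the ratio was -0.28, beside -0.46. With CMs that hold markers of other cell types left out instead, the ratio in 4n CMs was -0.27, above the median gene at -0.48. Yap1 UMIs were found in 5.53% (P1-2n) to 12.0% (P5-4n) of CMs, lowest in the shallowest and highest in the deepest library, and after thinning every CM to 1000 UMIs the share was 2.40% (P1-2n) to 3.27% (P1-4n).

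Wwtr1, the paralogue of Yap1 that encodes TAZ, stood at 26.9, 33.4 and 30.1 CPM in 2n CMs and at 36.6, 35.8 and 33.4 CPM in 4n CMs. E16.5-2n was the lowest library (24.3 to 29.7) and E16.5-4n the highest (33.4 to 40.0), which gave a log2 ratio of 4n over 2n of 0.45 (0.25 to 0.64) at E16.5, beside 0.10 (-0.07 to 0.26) at P1 and 0.15 (-0.02 to 0.32) at P5. Without CMs that hold markers of other cell types the ratio at E16.5 was 0.36. Neighbours in its order overlap in all 5 pairs. In 2n CMs Wwtr1 was the member farthest above the median gene from E16.5 to P1, by 0.65 on the log2 scale. Counted against Yap1 in the same library, which needs no scaling between libraries, Wwtr1 had 0.862 UMIs per Yap1 UMI in E16.5-2n (exact 95% interval 0.751 to 0.989) and 1.08 in E16.5-4n (0.9503 to 1.24), and 1.16 (P5-2n) to 1.29 (P1-2n) after birth, with all 4 postnatal intervals above 1. E16.5-2n was thus the only library with fewer Wwtr1 than Yap1 UMIs. Without CMs that hold markers of other cell types, P1-4n had 347 Wwtr1 and 325 Yap1 UMIs. In the 2n libraries these counts were 501 and 404 at P1 and 465 and 419 at P5. They lie nearer to even than the counts over all CMs, most so in P1-4n, and intervals of their ratios were not computed. The ratio of UMIs says nothing of which protein is more abundant, since 3′ capture can differ between the transcripts.

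Tead1 encodes a DNA-binding partner of YAP and TAZ and was the most even of the 10. It stood at 83.8, 83.4 and 94.6 CPM in 2n CMs and at 93.7, 84.8 and 89.0 CPM in 4n CMs. The highest library was 1.13 times the lowest. Relative to the median gene, Tead1 was 0.63 higher in 2n and 0.44 higher in 4n CMs from E16.5 to P5 on the log2 scale. Per cell, Tead1 went from 18.7 UMIs per 100 CMs in the shallowest library (P1-2n) to 44.8 in the deepest (P5-4n), and the share of CMs thinned to 1000 UMIs that held Tead1 was 7.75% (P5-4n) to 9.49% (P5-2n).

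Tead1 made up more of the TEAD transcripts with age. Of the UMIs of Tead1, Tead2, Tead3 and Tead4 together, Tead1 had 61.0% (exact 95% interval 58.8 to 63.2) in E16.5-2n, 76.4% (74.4 to 78.4) in P1-2n and 83.5% (81.8 to 85.1) in P5-2n. In 4n CMs it had 66.0% (63.7 to 68.1), 73.7% (71.8 to 75.5) and 87.4% (85.8 to 88.9). The intervals of successive ages do not overlap in either ploidy. From E16.5 to P5 the share of Tead2 went from 32.8% to 13.2% in 2n and from 29.5% to 9.55% in 4n CMs. That of Tead3 went from 5.73% (4.75 to 6.84) to 2.96% (2.26 to 3.79) in 2n CMs. In 4n CMs it went from 3.93% (3.10 to 4.92) to 2.46% (1.80 to 3.26), with intervals that overlap slightly. Tead4 lay between 0.167% and 0.751%. In CPM, Tead2 stood at 44.99, 20.98 and 14.95 in 2n and at 41.9, 24.5 and 9.73 in 4n CMs. The 4 genes together stood at 137 and 142 CPM at E16.5 and at 102 to 115 CPM after birth. Tead1 and Tead2 were therefore apart in their course, the former even and the latter lower at each later age.

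**Figure D3:**
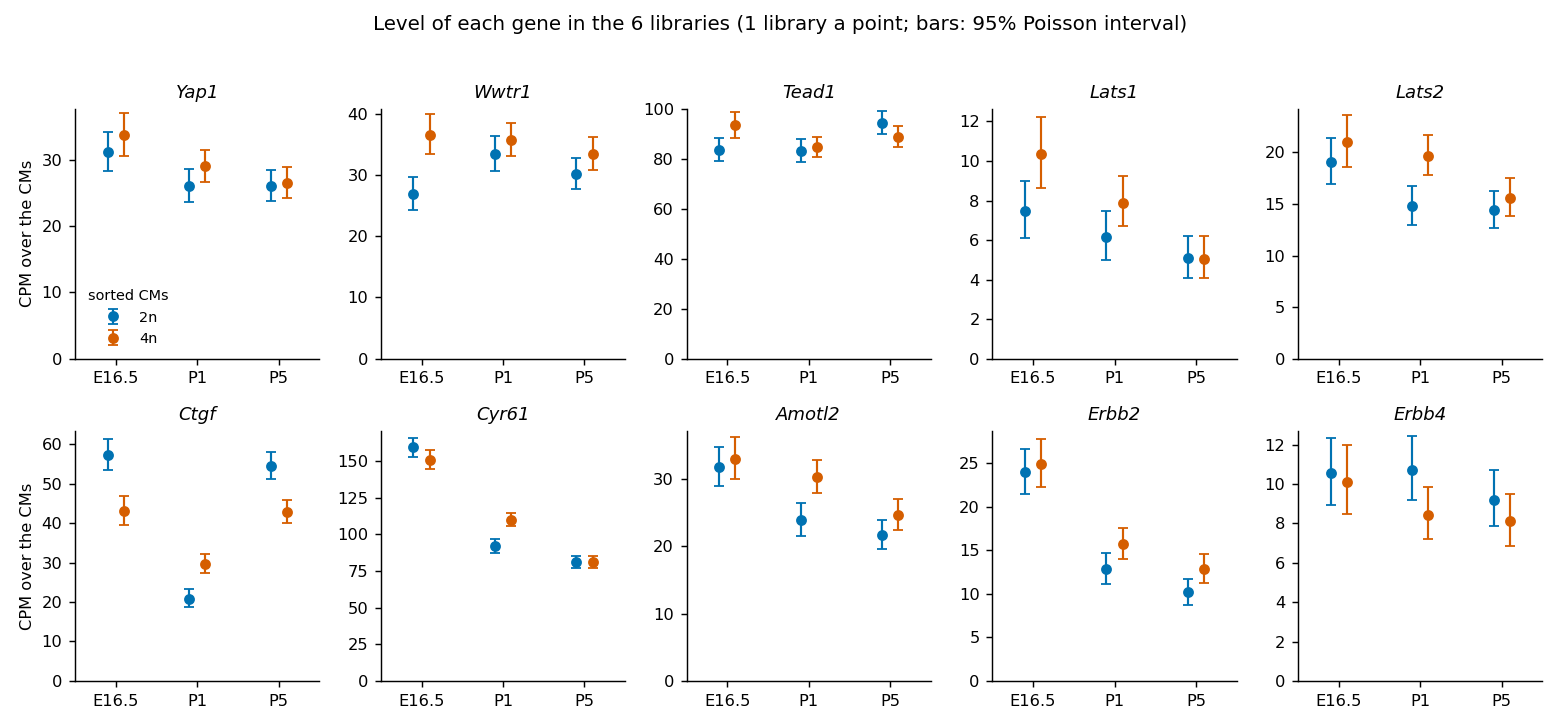
CPM of each gene (y axis, from 0) in the libraries of E16.5, P1 and P5 (x axis), 2n in blue and 4n in orange. Each point is 1 library and bars are 95% Poisson intervals for counting error; Tead1 lies between 83.4 and 94.6 CPM, Ctgf is lowest at P1 in both ploidies, and Erbb2 and Cyr61 are highest at E16.5 in both.

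The kinases that phosphorylate YAP and TAZ were lower in CPM at P5 than at E16.5. Of the 2, only Lats1 in 4n CMs had an interval that lay below the median gene. Lats1 had the fewest UMIs of the 10, at 7.45, 6.14 and 5.08 CPM in 2n CMs and at 10.3, 7.88 and 5.05 CPM in 4n CMs, on 91 (P5-2n) to 155 (P1-4n) UMIs per library. From E16.5 to P5 its log2 ratio was -1.03 (-1.43 to -0.64) in 4n and -0.55 (-0.97 to -0.14) in 2n CMs, and relative to the median gene -0.52 and -0.10. The 2n interval holds the median gene, at -0.45, and after thinning to 1000 UMIs Lats1 in 2n CMs lay above it (-0.29 beside -0.44). E16.5-4n (8.66 to 12.2 CPM) lies above both P5 libraries, whose intervals end at 6.23 or lower, while neighbours overlap in all 5 pairs. With CMs that hold markers of other cell types left out, the level in E16.5-4n was 8.88 CPM, the ratio from P1 to P5 in 4n CMs moved from -0.64 to -0.32, and that of 4n over 2n at P1 from 0.36 to -0.06.

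Lats2, the paralogue, stood at 19.1, 14.8 and 14.4 CPM in 2n CMs and at 21.04, 19.7 and 15.6 CPM in 4n CMs. Its largest gap between ploidies was at P1, with a log2 ratio of 0.41 (0.18 to 0.65), which was 0.14 without CMs that hold markers of other cell types. From E16.5 to P5 the ratio was -0.41 (-0.66 to -0.16) in 2n and -0.43 (-0.68 to -0.19) in 4n CMs, within 0.1 of the median gene. Lats2 UMIs outnumbered those of Lats1 in every library, by 2.04 (E16.5-4n) to 3.09 (P5-4n), and the exact 95% intervals of these 2 extremes (1.65 to 2.52 and 2.43 to 3.94) overlap slightly.

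The target genes did not share a course. Ctgf, which encodes a secreted matricellular protein, stood at 57.2 CPM in E16.5-2n (53.4 to 61.2), 20.9 in P1-2n (18.7 to 23.2) and 54.6 in P5-2n (51.2 to 58.1). In 4n CMs it stood at 43.1 (39.6 to 46.8), 29.6 (27.2 to 32.1) and 42.9 (39.9 to 46.0) CPM. Both P1 libraries lie below all other libraries, and the P5 libraries overlap those of E16.5 of the same ploidy. The log2 ratio was -1.46 (-1.64 to -1.27) from E16.5 to P1 and 1.39 (1.21 to 1.57) from P1 to P5 in 2n CMs, and -0.54 (-0.71 to -0.37) and 0.54 (0.38 to 0.69) in 4n CMs. The dip at P1 was present in both ploidies under each of the 10 alternatives.

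The ploidies were also ordered differently by age in Ctgf. The log2 ratio of 4n over 2n was -0.41 (-0.57 to -0.25) at E16.5, 0.51 (0.31 to 0.70) at P1 and -0.35 (-0.49 to -0.21) at P5. Over the alternatives it ranged from -0.53 to -0.30 at E16.5, from 0.40 to 0.86 at P1 and from -0.49 to -0.34 at P5. With CMs that hold markers of other cell types left out, the 6 levels were 57.7, 20.8 and 54.3 CPM in 2n and 40.0, 27.5 and 41.1 CPM in 4n CMs. The age and the litters cannot be told apart in these libraries.

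Cyr61, a close relative of Ctgf and an immediate target of YAP, was the most abundant member in UMIs. It stood at 160 CPM (153 to 166) in E16.5-2n, 91.9 (87.3 to 96.6) in P1-2n and 81.0 (76.8 to 85.2) in P5-2n. In 4n CMs it stood at 151 (144 to 158), 110 (106 to 115) and 81.4 (77.3 to 85.6) CPM. The levels were in the order of age in both ploidies, with the log2 ratio from E16.5 to P5 at -0.98 (-1.07 to -0.88) in 2n and -0.89 (-0.99 to -0.80) in 4n CMs, or -0.53 and -0.38 relative to the median gene. The P5 libraries did not differ between ploidies beyond counting error (log2 ratio 0.01, -0.10 to 0.11). At P1 the ratio of 4n over 2n was 0.26 (0.17 to 0.36), and it was -0.06 without CMs that hold markers of other cell types. The latter rests on 973 UMIs in P1-4n and 1397 in P1-2n. No interval was computed for it, so it is not read as a turn of direction.

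Against each other, Ctgf and Cyr61 gave a ratio of UMIs that was highest at P5 in both ploidies and lowest at P1 in 2n CMs. There were 0.359 Ctgf UMIs per Cyr61 UMI (0.331 to 0.389) in E16.5-2n, 0.227 (0.201 to 0.255) in P1-2n and 0.674 (0.621 to 0.732) in P5-2n. In 4n CMs the ratio was 0.285 (0.259 to 0.313), 0.269 (0.245 to 0.295) and 0.527 (0.483 to 0.575). The P5 intervals lie above those of all other libraries. Within cells thinned to 2000 UMIs, Cyr61 was found in 18.9% to 30.0% of CMs with a Ctgf UMI and in 11.9% to 23.9% of those without, higher with Ctgf in 6 of 6 libraries. In P5-2n the shares were 18.9% (15.1 to 23.1) of 392 CMs and 11.9% (10.8 to 13.0) of 3575, and in P5-4n 21.8% (16.8 to 27.5) of 243 and 12.2% (11.04 to 13.3) of 3244. The intervals also lie apart in E16.5-4n and overlap in the other 3 libraries. Amotl2 was likewise found more often with Cyr61 than without it in 6 of 6 libraries, with overlapping intervals in each (5.18% and 4.05% in P1-2n). For Yap1 with Wwtr1, Yap1 with Tead1 and Lats1 with Lats2 the direction differed between libraries. CMs that hold markers of other cell types, in which Cyr61 was higher, were not left out of these shares. Their part in them was not tested.

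Amotl2, a scaffold that binds YAP and is also a target gene, stood at 31.8, 23.9 and 21.7 CPM in 2n CMs and at 33.1, 30.3 and 24.6 CPM in 4n CMs. The log2 ratio from E16.5 to P5 was -0.56 (-0.75 to -0.36) in 2n and -0.43 (-0.62 to -0.23) in 4n CMs, close to the median gene, from which it differed by -0.11 and 0.08. At P1 the 2n CMs were lower (4n over 2n 0.34, 0.16 to 0.53), which was 0.20 without CMs that hold markers of other cell types.

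The receptors differed in their course. Erbb2, the co-receptor, stood at 23.9 CPM (21.5 to 26.6) in E16.5-2n, 12.8 (11.2 to 14.7) in P1-2n and 10.2 (8.73 to 11.7) in P5-2n. In 4n CMs it stood at 24.9 (22.2 to 27.7), 15.7 (14.0 to 17.6) and 12.8 (11.2 to 14.6) CPM. Both E16.5 libraries lie above all postnatal ones. From E16.5 to P5 the log2 ratio was -1.24 (-1.50 to -0.97) in 2n and -0.96 (-1.20 to -0.71) in 4n CMs, or -0.79 and -0.45 relative to the median gene, the farthest below it of the 10 in 2n CMs. Leaving out CMs with markers of other cell types gave levels of 23.9, 12.9 and 10.1 CPM in 2n and 25.4, 15.9 and 13.0 CPM in 4n CMs. After birth Erbb2 was somewhat higher in 4n CMs, with log2 ratios of 0.29 (0.04 to 0.55) at P1 and 0.34 (0.05 to 0.62) at P5, beside 0.06 (-0.17 to 0.28) at E16.5. Without mitosis-marked CMs the ratio was 0.29 at P1 and 0.18 at P5. In CMs thinned to 1000 UMIs, Erbb2 was found in 2.57% of the 2n and 2.43% of the 4n CMs at E16.5 and in 0.956% (P5-2n) to 1.66% (P1-4n) after birth.

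Erbb4, which binds neuregulin, stood at 10.5, 10.7 and 9.21 CPM in 2n CMs and at 10.1, 8.44 and 8.10 CPM in 4n CMs. The intervals of its lowest library, P5-4n (6.85 to 9.51), and its highest, P1-2n (9.18 to 12.4), overlap. From E16.5 to P5 the log2 ratio was -0.19 (-0.52 to 0.13) in 2n and -0.32 (-0.67 to 0.03) in 4n CMs, 0.26 and 0.19 above the median gene. The 4n CMs were lower at P1, with a log2 ratio of 4n over 2n of -0.34 (-0.66 to -0.03), which was -0.27 without CMs that hold markers of other cell types, beside -0.06 at E16.5 and -0.19 (-0.51 to 0.14) at P5. On 132 to 176 UMIs per library, a change of less than about these intervals was not detectable at this depth. Per Erbb4 UMI there were 2.27 Erbb2 UMIs in E16.5-2n (1.88 to 2.77) and 2.46 in E16.5-4n (2.01 to 3.04), against 1.199 (0.977 to 1.47) in P1-2n and 1.10 (0.889 to 1.37) in P5-2n. In 4n CMs there were 1.86 (1.54 to 2.26) at P1 and later, at P5, 1.58 (1.29 to 1.96). The intervals of both 2n libraries after birth lie below those of E16.5. Joint detection of the receptors in a cell was rare, with 0 to 4 CMs per library at 2000 UMIs, too few to compare.

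CMs that hold markers of other cells differed in a subset of the 10 genes. In CMs with at least 3 UMIs of the 8 fibroblast markers, Cyr61 was higher than in CMs with none of the 5 lists in 6 of 6 libraries, with log2 ratios of 0.72 to 1.28, and Wwtr1 in 6 of 6, with 0.50 to 1.26, each interval above 0. Lats1 was higher in 6 of 6, with 1.05 to 1.59 and 5 intervals above 0, and Lats2 in 6 of 6, with 0.30 to 1.57 and 4 intervals above 0. Amotl2 was higher in 6 of 6, with 0.15 to 0.72 and 3 intervals above 0. Ctgf was higher in 5 and lower in 1, with -0.37 to 0.60 and 3 intervals above 0. The same ratios over all genes are not given here. For Tead1 (-0.03 to 0.28), Yap1 (0.02 to 0.50), Erbb2 (-0.49 to 0.21) and Erbb4 (-0.71 to 0.60) every interval held 0. In the 1130 such CMs of P1-4n, at a median of 4202 UMIs, Cyr61 stood at 159 CPM, against 85.1 in the 3215 CMs with none of the lists, at a median of 2876. After thinning to 1000 UMIs, Cyr61 was found in 15.8% (13.8 to 18.1) of the former and 7.87% (6.96 to 8.85) of the latter. CMs with endothelial markers also had more Wwtr1 (0.55 to 1.23) and Cyr61 (0.48 to 1.29) in 6 of 6 libraries. Since such CMs make up more of the 4n libraries, some levels, counts or ratios without them were given above for each member but Tead1. For Tead1 the log2 ratios of 4n over 2n without them were 0.17, -0.01 and -0.10 at E16.5, P1 and P5. The shares of the TEAD genes were not computed without such CMs. Whether these barcodes hold more than 1 cell was not tested.

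**Figure D4:**
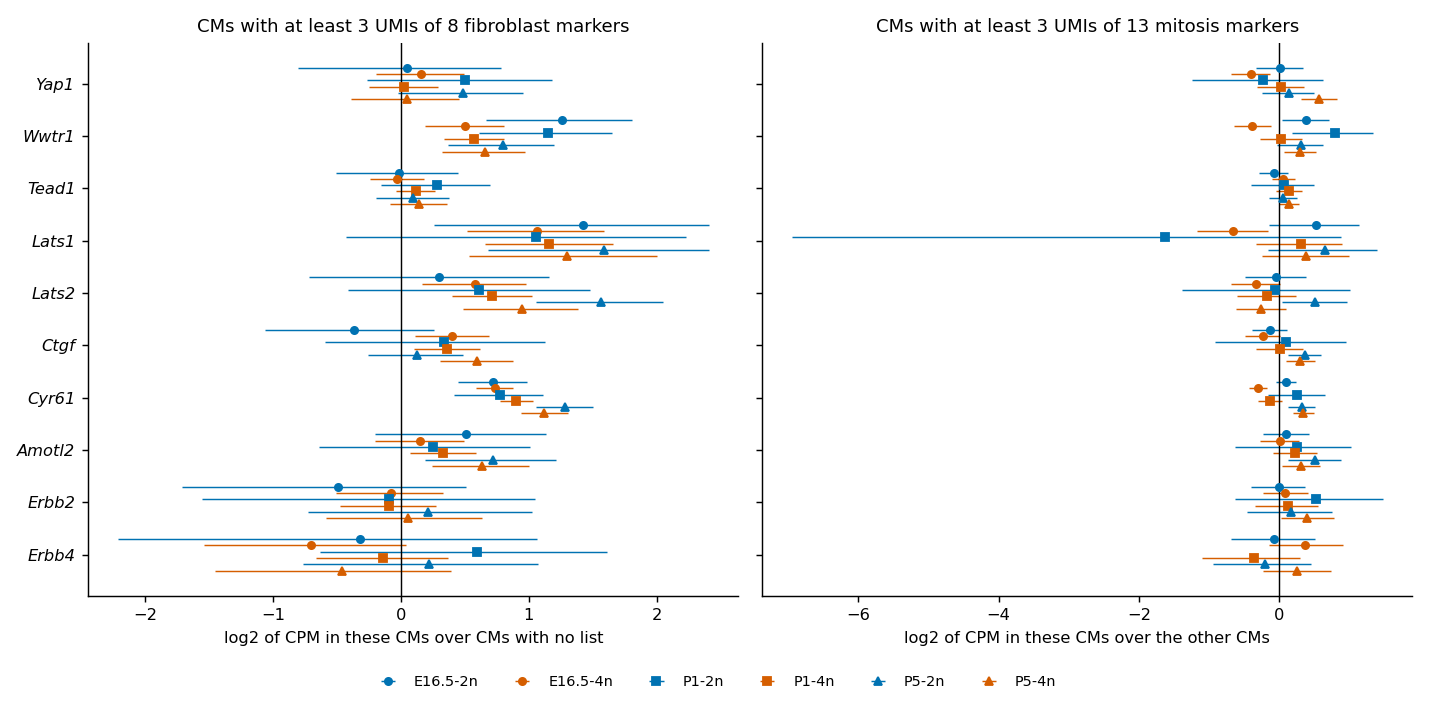
Log2 ratio of the CPM (x axis) of each gene (y axis) in CMs marked by fibroblast genes over CMs with no list (left) and in CMs marked by mitosis genes over the other CMs (right), with 2n in blue and 4n in orange and E16.5, P1 and P5 as circles, squares and triangles. Bars are 95% intervals for counting error; all points of Wwtr1, Lats1 and Cyr61 on the left lie right of 0, and on the right no gene keeps its bars on one side of 0 in all libraries.

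Mitosis markers moved with the 10 genes less evenly. Amotl2 was higher in mitosis-marked CMs in 6 of 6 libraries, with log2 ratios of 0.003 to 0.51 and 2 intervals above 0, and Tead1 lay between -0.08 and 0.14 with every interval holding 0. Yap1 was lower in mitosis-marked CMs of E16.5-4n (-0.41, -0.68 to -0.13) and higher in those of P5-4n (0.57, 0.31 to 0.83), and Wwtr1 had the same contrast (-0.39, -0.65 to -0.12, and 0.29, 0.06 to 0.53). With mitosis-marked CMs left out, the ratio of 4n over 2n for Wwtr1 at E16.5 was 0.74 and that for Lats1 0.94, both past 1.5-fold. With CMs that hold markers of other cell types left out instead, these ratios were 0.36 and 0.31.

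The other pathway genes, 84 in 6 lists, were read against all genes, of which 40.9% in 2n and 45.8% in 4n CMs were at least 1.5-fold lower at P5 than at E16.5 and 7.48% and 6.19% higher. Of these lists, the TEAD and VGLL factors had the lowest list median from E16.5 to P5. Among these, 3 of 6 genes could be counted and all 3 were at least 1.5-fold lower at P5 than at E16.5 in both ploidies, with list medians of -1.59 in 2n and -2.11 in 4n CMs beside -0.45 and -0.51 for all genes. Vgll4, which competes with YAP for TEAD, stood at 23.6, 6.75 and 3.96 CPM in 2n and at 26.2, 8.80 and 3.64 CPM in 4n CMs, with log2 ratios of -2.57 (-2.96 to -2.20) and -2.85 (-3.25 to -2.46). Tead3 had ratios of -1.23 and -1.16. Tead2 is the symbol of 2 rows in the tables, and the row used here held all 2480 of its UMIs.

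In the kinase core and its adaptors, 12 of 12 genes were counted. From E16.5 to P5, 4 were lower in each ploidy, the same in both (Stk3, Stk38l, Taok3 and Rassf1), and 1 was higher in 2n CMs (Map4k4). Of all genes, 40.9% in 2n and 45.8% in 4n CMs were lower. The list medians were -0.02 in 2n and -0.31 in 4n CMs, beside -0.45 and -0.51 for all genes. Stk3, which encodes MST2, the kinase above LATS, had log2 ratios of -1.10 (-1.44 to -0.76) and -1.33 (-1.656 to -1.003), while its paralogue Stk4 had 0.11 (-0.27 to 0.50) and -0.32 (-0.69 to 0.06), and Sav1, the scaffold of both, 0.13 and -0.04. The scaffold Rassf1 stood at 41.2, 10.0 and 10.9 CPM in 2n and at 56.7, 19.5 and 20.7 CPM in 4n CMs, and was higher in 4n CMs at each age (0.46, 0.96 and 0.92).

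Of 21 upstream and junction genes, 18 were counted in 2n CMs from E16.5 to P5 (2 higher, 6 lower) and 19 in 4n CMs (1 higher, 8 lower), with medians of -0.27 and -0.56 beside -0.45 and -0.51 for all genes, of which 40.9% and 45.8% were lower. Nf2, whose product merlin activates LATS at the membrane, was higher at P5 in both ploidies: 14.8, 20.1 and 28.5 CPM in 2n and 15.1, 21.7 and 27.1 CPM in 4n CMs, with log2 ratios of 0.95 (0.71 to 1.18) and 0.84 (0.60 to 1.09). Agrn, which encodes the matrix protein agrin, had -1.40 and -2.06, and Ajuba, a LIM protein that binds LATS, -1.61 and -1.17. Amotl1, a relative of Amotl2, had -0.68 and -1.44 and Dlg5 -0.97 and -0.83. Amot itself had 13 to 45 UMIs per library.

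**Figure D5:**
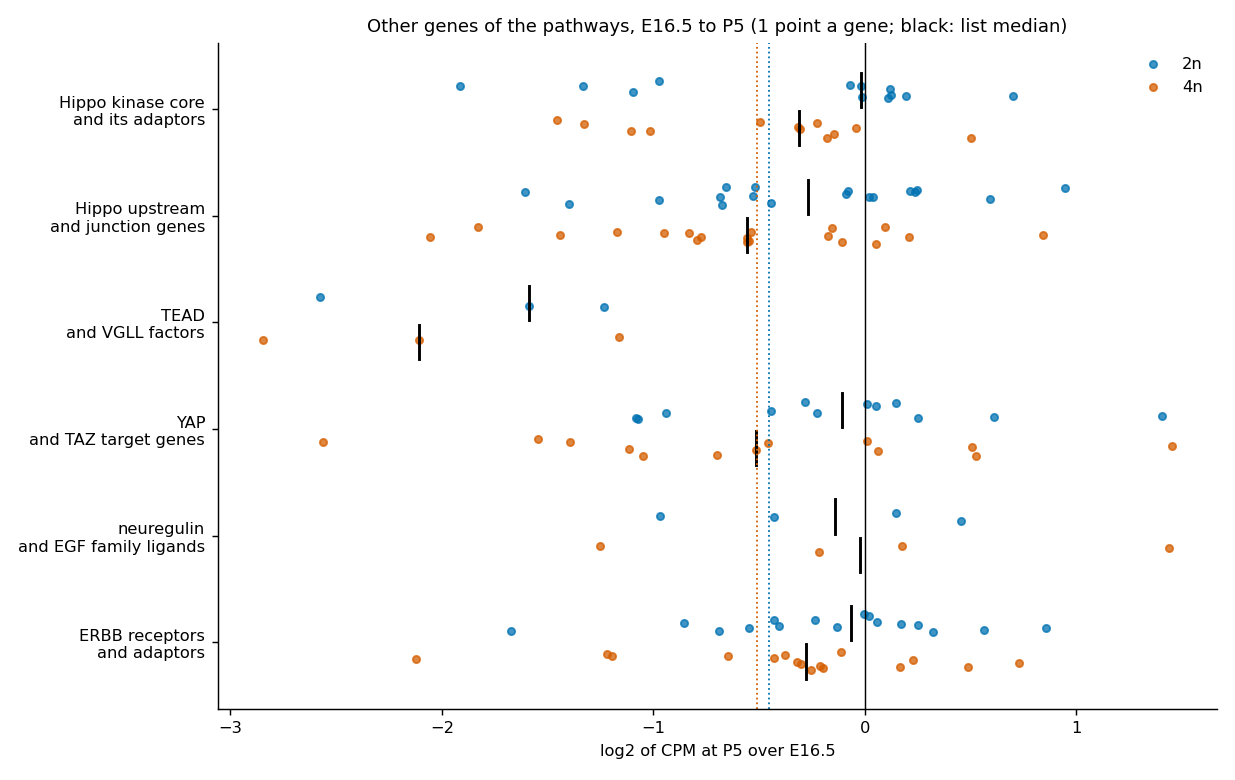
Log2 ratio of the CPM at P5 over E16.5 (x axis) of the other genes of each list (rows) in 2n (blue) and 4n (orange) CMs, 1 point a gene with at least 50 UMIs in both libraries together, black bars at list medians and dotted lines at the median of all genes. The TEAD and VGLL factors, a row that leaves out Tead1, lie furthest left, with medians of -1.59 and -2.11. The vertical scatter within a row has no meaning.

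Of 17 further genes listed as YAP and TAZ targets, 12 were counted in 2n CMs from E16.5 to P5 (2 higher, 3 lower, median -0.11) and 13 in 4n CMs (1 higher, 6 lower, median -0.52), beside medians of -0.45 and -0.51 for all genes and shares of 40.9% and 45.8% lower. Ankrd1, a cardiac ankyrin repeat gene, had a low point at P1 as Ctgf did, at 2298, 849 and 1887 CPM in 2n and at 1754, 693 and 1765 CPM in 4n CMs. It was lower in 4n than in 2n CMs at all 3 ages (-0.39, -0.29 and -0.10), so that its ploidy order at P1 was not that of Ctgf. Tgfb2 (-1.08 and -1.55), Asap1 (-1.07 and -1.39) and the tissue factor gene F3 (-0.94 and -1.11) were lower at P5, and Nt5e, which encodes an enzyme that makes adenosine, was higher (1.41 and 1.45).

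Nrg1, the gene of neuregulin, was scarce in these cells, with 0, 0 and 1 UMIs in the 2n and 15, 11 and 4 UMIs in the 4n libraries at E16.5, P1 and P5. The 7 endothelial markers stood at 29.2, 30.9 and 66.8 CPM in the 2n and at 114, 130 and 69.9 CPM in the 4n libraries, and their part in the Nrg1 UMIs was not tested. Of 11 ligand genes, 4 were counted from E16.5 to P5 in each ploidy, and Hbegf, which encodes a ligand of EGFR and ERBB4, was lower, at 43.2, 14.1 and 22.0 CPM in 2n and at 36.1, 15 and 15.2 CPM in 4n CMs. Egf was past 1.5-fold higher in 4n CMs alone, on 11 UMIs at E16.5 and 42 at P5 (log2 ratio 1.44, 0.46 to 2.55), beside 0.46 (-0.34 to 1.29) in 2n CMs; the difference between the ploidies was not tested. The list medians were -0.14 in 2n and -0.02 in 4n CMs. Of 17 other receptors and adaptors, 16 were counted (2n: 1 higher, 3 lower, median -0.07; 4n: 1 higher, 4 lower, median -0.28), beside 40.9% and 45.8% lower and medians of -0.45 and -0.51 over all genes. Errfi1, an inhibitor of ERBB kinases, had log2 ratios of -1.67 (-2.13 to -1.23) and -2.12 (-2.54 to -1.72) and the kinase Src -0.86 and -1.19, while Adam19, a protease that sheds neuregulin, was higher (0.86 and 0.73). The other receptors were near the limit of detection, with 48 to 95 UMIs of Erbb3 and 1 to 27 of Egfr per library.

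Genes whose course over the 6 libraries was most like that of a member were found by the root mean square difference of centred log2 CPM among 9625 genes with at least 300 UMIs, as a description over 6 values that share 6 library totals. Many genes lay within 0.15 of most members, from 259 for Lats1 to 1523 for Yap1. For Ctgf there were 2, Dnajb5 at 0.14 and Gsg1l at 0.15. For Erbb2 the nearest was Zfp281 at 0.04, for Cyr61 Ifngr1 at 0.04, for Erbb4 Fgd4 at 0.05 and for Tead1 Ipo7 at 0.03.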

How the data were processed

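Droplet-based scRNA-seq (10x Chromium 3′ kit v2) had been run on 6 libraries, 1 for each of the 6 groups. The authors aligned the reads to mm10/GRCm38 with STAR within Cell Ranger, whose version is not given in the sources used here, and what they deposited are UMI counts of each gene in each cell barcode, with no normalization. The submitters' processing notes also name Seurat 2.3.0. A deposited table of the authors' own comparison, which holds fold changes, shares of cells and p-values, and a list of background genes were not used. Groups were taken from the sample titles.

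Counts were used as deposited. CMs were barcodes with at least 1 UMI of each of 4 CM markers. A gene's level is its UMIs in all CMs of a library, over the UMIs of all genes in them (CPM). Intervals are exact at the 95% level (Poisson for CPM, Clopper-Pearson for shares, the binomial split of UMIs for ratios) and cover counting error only, so that they hold neither the spread between animals nor between sorts. A fold of 1.5 was a rule of size and not a test. Genes needed 50 UMIs in a comparison, and the median gene was taken over genes with 100. Classes of CMs were those with at least 3 UMIs of a marker list. A class that should lack the 10 genes was not found. Shares of CMs that hold a member were therefore compared after thinning to 1000 or 2000 UMIs, which left out 0 to 700 or 167 to 4133 CMs per library. The unthinned shares of Yap1 and the UMIs per 100 CMs of Tead1 are also given, and these depend on depth. Shares of CMs that hold a marker list were not thinned. The erythroid genes stand for RNA that a CM does not make, the source of which was not tested. Doublets were not called. Leaving out the 5% deepest CMs was run as an alternative, which removes CMs by depth alone and cannot stand in for doublet calls. All 10 members are described. Of the other genes of the lists, those at least 1.5-fold apart from E16.5 to P5 in the same direction in both ploidies, or between the ploidies at all 3 ages, were named, at most 4 per list, with Nrg1, Erbb3, Egfr, Tead2, Tead3, Tead4, Stk3, Stk4, Sav1, Nf2, Vgll4, Amot, Amotl1 and Ankrd1 named whatever their values, and Map4k4 and Egf named after their values were seen. The members and lists were chosen with earlier results of these data known. Alternatives were another scaling (the median gene, or a total without the 50 genes of most UMIs), the mean over cells, no CM filter or 2 UMIs of each marker, CMs with markers of other cells, of mitosis or of the largest depth left out, and thinning. The functions for ratios and intervals were tested on simulated data. Python 3.11.15, numpy 2.4.6, scipy 1.17.1 and matplotlib 3.10.9 were used.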

Additional observations from a re-analysis of the deposited data

Results flagged for a closer look

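The ratio of 4n over 2n CMs for Ctgf lay on opposite sides of 0 at successive ages. On the log2 scale it was 0.915 higher at P1 than at E16.5 and, at P5, it dropped by 0.852 from P1. With 1 library a group these differences were not tested. Other-cell markers (32.3% of P1-4n and 2.44% of P1-2n CMs) and mitosis markers (10.1% and 1.83%) also differ between the libraries of P1, and the ratio at P1 was 0.40 without the CMs that hold the former and 0.51 without those that hold the latter.

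UMIs of the 10 genes also occur in the 423 barcodes that failed the CM filter, which enter no value of the report as given, only the alternative with no CM filter. They held 307 such UMIs, or 597 CPM in sum, with Cyr61 at 133 UMIs (259 CPM, 217 to 307) and Erbb2 at 5 (9.72 CPM, 3.16 to 22.7).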

How the results depend on the processing

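No paired analysis was possible because each group has 1 library and no test was made. None of the 11 ratios past 1.5-fold turned its direction under the 10 alternatives, and 3 kept that size relative to the median gene, 9 with a total that leaves out the 50 genes of most UMIs, 10 without CMs that hold markers of other cell types, 9 thinned to 1000 UMIs and 11 under each other setting. Of the 60 ratios between ages, 1 was higher and 10 were lower past 1.5-fold, which became 5 and 2 relative to the median gene and 1 and 16 without mitosis-marked CMs. The number of the 10 genes past 1.5-fold between 4n and 2n CMs was 0 at each age. At E16.5 it became 2 without mitosis-marked CMs and 1 as the mean over cells, without the 5% deepest CMs and thinned to 1000 or 2000 UMIs, and at P1 it became 1 or 2 on thinning to 1000 or 2000. In 2n CMs from E16.5 to P1 it went from 3 lower to 2 lower with the top genes left out. Relative to the median gene it became 1 lower and 1 higher. In 2n CMs it went from 1 to 2 from P1 to P5 (thinned to 1000), and from 2 to 4 from E16.5 to P5 (without CMs with markers of other cell types, and thinned to 2000). Over that span it was 3 as the mean over cells, without mitosis-marked CMs, without the 5% deepest CMs and thinned to 1000. Relative to the median gene it was 2 higher and 1 lower. In 4n CMs from E16.5 to P1 it went from 1 to 0 (relative to the median gene, top genes left out, thinned to 1000), 3 (without other-cell markers), 4 (without mitosis-marked CMs) and 2 (thinned to 2000). In 4n CMs from P1 to P5 it went from 1 to 0 without other-cell markers and to 2 without mitosis-marked CMs. In place of Lats1, the 1 was Ctgf (higher) relative to the median gene and Amotl2 (lower) thinned to 1000. In 4n CMs from E16.5 to P5 it went from 3 to 0 relative to the median gene. It went to 4 without mitosis-marked CMs and thinned to 1000. Fewer UMIs remain after thinning; for the other settings the cause was not tested. Depth limits Lats1 and Erbb4 most, with as few as 91 UMIs in a library.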
